A study of Mus musculus with 8 samples.

Results

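Small nucleolar RNA (snoRNA) genes and the genes that carry them in their introns were compared between kidneys with and without Grb2 in the ureteric bud. The set was chosen by symbol: H/ACA snoRNA genes (Snora), C/D snoRNA genes (Snord) outside the imprinted domain between Dlk1 and Dio3, small nucleolar RNA host genes (Snhg and a digit), and the hosts Gas5 and Rabggtb. It held 89 of the 22180 genes measured, of which 26 were H/ACA genes, 47 were C/D genes and 16 were hosts. No gene had to exceed a minimum level in the main fit, so all 89 entered its counts by class. The alternative without the dimmest 25% of genes left out 7 members, and the pair counts need a measured spanning gene. The mean over all 8 arrays was the only measured value in the rule, and it picked which probe set stood for each of the 4 members with several. A further 30 names that fit the rule, Gas5 among them, shared a probe set with another gene and were not analysed here.

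The 8 samples came from mouse embryos of 1 litter at stage E14.5 (embryonic day), and each sample pooled both kidneys of an embryo. In 4 embryos, labelled Grb2 UB-cKO, Grb2 had been deleted in the ureteric epithelium, and the other 4 were wild-type controls. The promoter that drove the recombinase was not given in the sources used here. Grb2 encodes an adaptor that couples receptor tyrosine kinases to RAS, and the comparison addresses how its loss in the epithelium alters gene expression in the whole organ. RNA was taken from the whole organ and not from the epithelium alone, so fewer cells of a type and less RNA per cell cannot be told apart in any value here.

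H/ACA snoRNAs guide the conversion of uridine to pseudouridine in ribosomal RNA, and C/D snoRNAs guide the methylation of its ribose. A few members of both families act instead in the cleavage of the ribosomal RNA precursor. Most mammalian snoRNAs are cut from introns of a host transcript, and many hosts encode ribosomal proteins, translation factors or nucleolar proteins, while Snhg hosts are long non-coding RNAs. The mature RNAs work in particles with a shared set of core proteins, around dyskerin for H/ACA and fibrillarin for C/D. Whether a probe set reads the mature snoRNA or the precursor of the host was not given in the sources used here.

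The values are log2 probe-set values, on which a difference of 1 is a 2-fold change, and array medians lay between 6.61 and 6.72. Grb2 itself read 8.36, 8.17, 8.22 and 8.06 in the Grb2 UB-cKO kidneys and 8.68, 8.65, 8.61 and 8.66 in controls, with no overlap between groups. Its log2 fold change was -0.45 (SE 0.07, n = 4 per group, limma adjusted p = 0.0017, two-sided exact permutation p = 0.0286, the smallest 4 against 4 embryos allow). The kidney markers Pax2, Pax8, Wt1, Six2, Foxd1, Ret and Calb1 all read above at least 45.4% of genes in every sample. The groups differed in sex-linked genes, since the mean of 3 Y-linked genes was 9.94 to 10.1 in the 4 Grb2 UB-cKO embryos and 9.94 in control replicate 3, but 4.09 to 4.24 in control replicates 1, 2 and 4. Counts of genes called lower or higher are therefore given with and without adjustment for the Y-linked mean, and those of snoRNA and host genes also against control replicate 3. Counts of markers, pairs, overlaps and 2-fold falls, and counts with 1 embryo left out, are given without that adjustment only.

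Cell-type markers also moved with the groups. A marker is called lower or higher at an adjusted p under 0.05 in limma over all 22180 genes. Among all genes, 14.3% were called lower and 13.7% higher. The mean of 6 ureteric tip markers was 6.63 to 7.16 in Grb2 UB-cKO and 8.79 to 9.0 in control kidneys, with all 6 lower. That of 6 nephron progenitor markers was 8.94 to 9.57 against 10.2 to 10.4, with 5 lower. Proliferation genes averaged 10.6 to 10.9 against 11.3 to 11.4, and all 7 measured were lower. Stromal markers were at 11.2 to 11.5 against 10.6 to 10.8, with 4 of 5 higher, and endothelial markers at 10.02 to 10.33 against 9.68 to 9.77, with 5 of 7 higher. The 8 macrophage markers averaged 8.38 to 8.78 against 7.30 to 7.56, with 7 higher, and the 6 erythroid markers measured averaged 7.63 to 8.24 against 6.71 to 7.26, with 5 higher. None of these ranges overlapped between groups. Levels of single genes did not overlap for 31.2% of all genes, and no such share was computed for means of lists. The part of the tip, progenitor, proliferation, stromal, endothelial and macrophage lists in the results that follow was not tested.

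Both snoRNA families were lower in Grb2 UB-cKO kidneys, and most host genes were lower with them. Of the 26 H/ACA genes, 19 fell, none rose and 7 did not pass the threshold, which was an adjusted p under 0.05 in limma over all 22180 genes. Of the 47 C/D genes, 33 fell, 1 rose and 13 did not pass, and of the 16 hosts 11 fell, 2 rose and 3 did not pass. Among all genes measured, 14.3% were called lower and 13.7% higher, or 28.1% in either direction, against 73.1% of H/ACA genes, 70.2% of C/D genes and 68.8% of hosts called lower. The median log2 fold change was -0.76 for H/ACA, -0.73 for C/D and -0.52 for host genes, beside 0.0058 for all genes. Levels of all 4 Grb2 UB-cKO embryos lay below all 4 controls for 18 H/ACA genes, 31 C/D genes and 13 hosts, where 16.0% of all genes did so. They lay above all controls for 1 C/D gene and 2 hosts, where 15.2% of all genes did so.

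**Figure D1:**
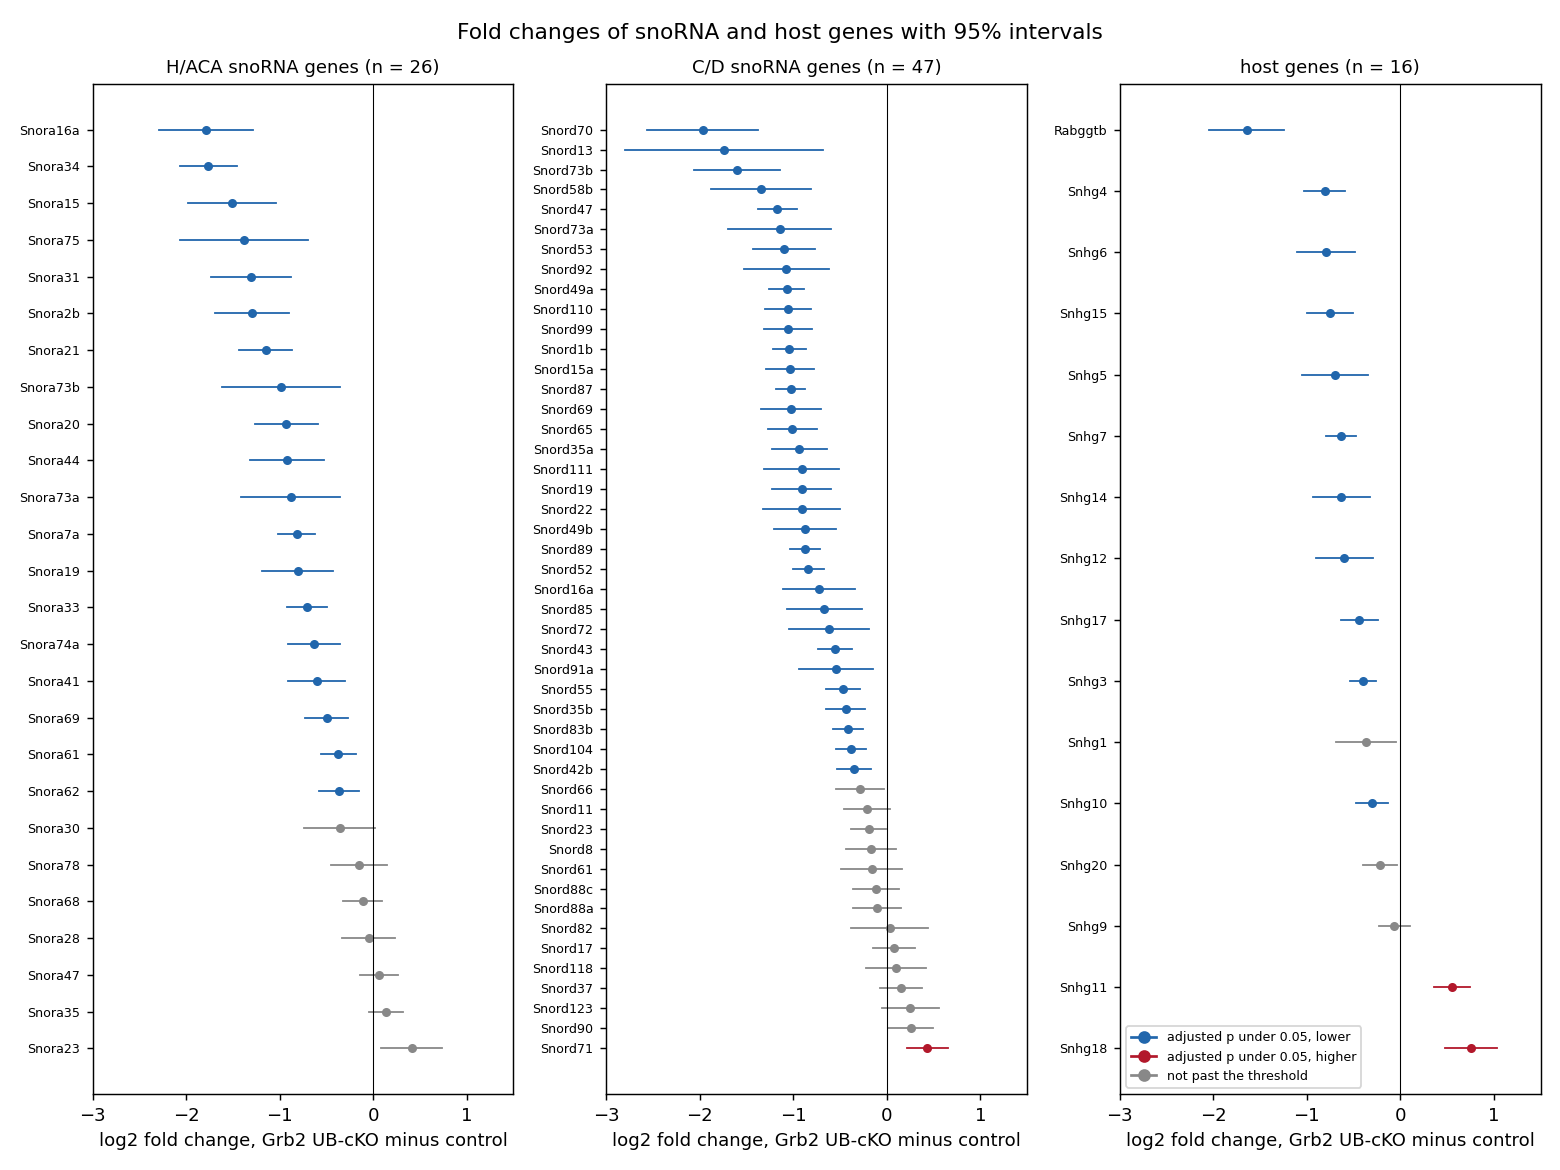
Log2 fold change (Grb2 UB-cKO minus control, x axis) of each H/ACA, C/D and host gene, with its 95% interval from limma as a line, blue for genes past the threshold and lower, red for past it and higher, grey for the rest. The H/ACA genes ran from -1.79 to 0.41, the C/D genes from -1.97 to 0.43 and the hosts from -1.64 to 0.75.

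The fall was seen in each embryo when a class was averaged. The class level, obtained by centring each gene on its mean over 8 embryos and then averaging the members within an embryo, was -0.33, -0.21, -0.48 and -0.43 for H/ACA genes in Grb2 UB-cKO replicates 1 to 4 and 0.57, 0.42, 0.34 and 0.12 in the controls. For C/D genes it was -0.29, -0.27, -0.37 and -0.37 against 0.45, 0.38, 0.34 and 0.14. For hosts it was -0.18, -0.24, -0.25 and -0.20 against 0.33, 0.27, 0.17 and 0.11. In each class every Grb2 UB-cKO embryo was below every control, and control replicate 1 was highest and control replicate 4 lowest of the controls. Among the 52 snoRNA genes that fell, control replicate 1 had the highest control value for 28 and control replicate 4 the lowest for 43. These class levels are descriptions and carry no test.

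**Figure D2:**
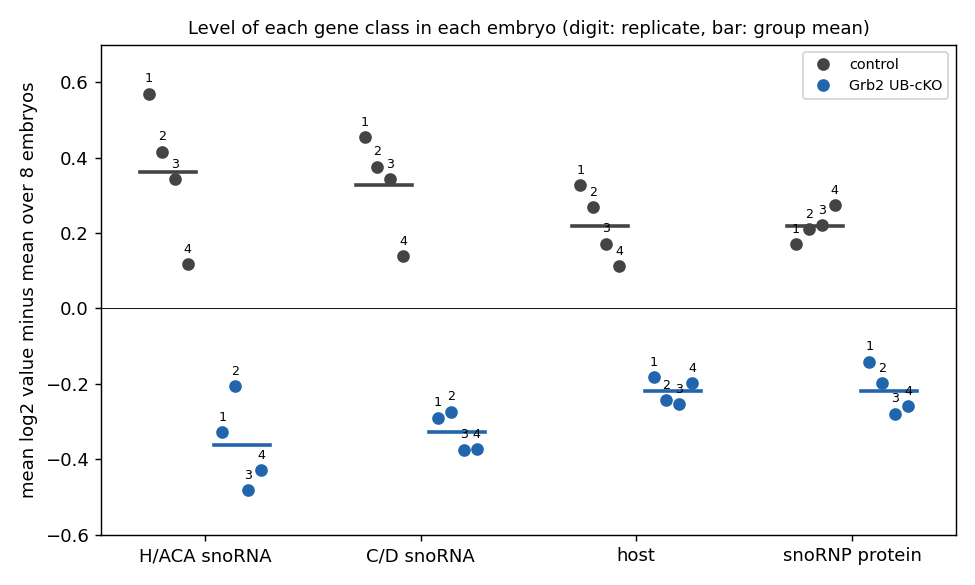
Class level of each embryo (y axis, mean log2 value minus the mean over 8 embryos) for H/ACA, C/D, host and snoRNP protein genes, as points with the replicate number beside them and a bar at the group mean. H/ACA levels lay between -0.48 and -0.21 in Grb2 UB-cKO embryos and between 0.12 and 0.57 in controls, with no overlap in any of the 4 classes.

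Falls of at least 2-fold were found for 7 H/ACA genes, 16 C/D genes and 1 host, beside 113 of all genes (0.509%). The H/ACA and C/D medians differed by only -0.03 on the log2 scale. The sign of this difference turned without the dimmest 25% of genes (0.022) and when 1 of several embryos was left out, with a range of -0.085 to 0.053, so no order of the families can be read from it. The median of the 73 snoRNA genes minus that of the hosts was -0.21, and it ranged from -0.30 to -0.13 when 1 embryo was left out (-0.13 without control replicate 1). It was -0.31 when the probe sets of a gene were averaged. The differences between classes were not tested.

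Among H/ACA genes, Snora16a had the largest fall. It read 7.44, 7.64, 7.67 and 7.36 in the Grb2 UB-cKO kidneys and 10.11, 9.17, 9.07 and 8.92 in controls. All 4 Grb2 UB-cKO values lay within a narrow band below the controls, and control replicate 1 stood above the other controls. The gene was 3.46-fold lower (log2 fold change -1.79, SE 0.23, n = 4 per group, adjusted p = 0.000443). Snora34 read 6.90, 7.13, 6.52 and 6.59 against 8.65, 8.44, 8.70 and 8.40, and was 3.39-fold lower (-1.76, SE 0.14, adjusted p = 5.25e-05). Here the controls were close together and the groups were more than 1 log2 unit apart. Snora15 read 4.88, 5.31, 4.55 and 4.66 against 6.56, 6.41, 6.68 and 5.79 (-1.51, SE 0.21, adjusted p = 0.000699). It is among the dimmest 25% of genes, with control replicate 4 the lowest control. Snora31 read 6.77, 7.12, 6.74 and 6.63 against 8.46, 8.40, 8.06 and 7.55 (-1.30, SE 0.19, adjusted p = 0.000896), again with control replicate 4 the lowest control and no overlap.

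The paired H/ACA genes Snora73a and Snora73b encode U17, which takes part in cleavage of the ribosomal RNA precursor rather than in base modification. Snora73a read 9.0, 9.38, 8.85 and 9.17 against 10.73, 10.03, 9.71 and 9.47, and Snora73b read 9.22, 9.67, 8.92 and 9.47 against 11.19, 10.32, 9.98 and 9.75. Both had their highest value in control replicate 1 and a narrow gap between the lowest control and the highest Grb2 UB-cKO embryo. Their log2 fold changes were -0.88 (SE 0.24, adjusted p = 0.0199) and -0.99 (SE 0.28, adjusted p = 0.0263). The copies are near-identical, so how the signal splits between them is uncertain. Snora73a lost its call without Grb2 UB-cKO replicate 3 (adjusted p = 0.0569), and Snora73b without Grb2 UB-cKO replicate 1 (0.0602) or 3 (0.0731) or control replicate 2 (0.0592). Among H/ACA genes Snora73b had the largest adjusted p inside the threshold, and Snora23 the smallest outside it.

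The 7 H/ACA genes that did not pass were Snora30, Snora78, Snora68, Snora28, Snora47, Snora35 and Snora23, with log2 fold changes from -0.36 to 0.41. Snora23 read 11.22, 11.34, 10.98 and 11.25 in Grb2 UB-cKO kidneys and 10.42, 10.65, 11.04 and 11.04 in controls. The groups overlapped, since control replicates 3 and 4 reached the range of the Grb2 UB-cKO embryos. Its log2 fold change was 0.41 (95% interval 0.09 to 0.74, adjusted p = 0.0612), and it passed without control replicate 3 (adjusted p = 0.0378) or 4 (0.0376).

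Among C/D genes, Snord70 had the largest fall. It read 4.55, 4.07, 3.93 and 3.11 in the Grb2 UB-cKO kidneys and 6.23, 5.85, 5.91 and 5.55 in controls. Every Grb2 UB-cKO value was about 1 log2 unit or more below the lowest control, and the gene belongs to the dimmest 25%. It was 3.91-fold lower (log2 fold change -1.97, SE 0.26, adjusted p = 0.00058). Snord73b read 8.24, 8.39, 7.90 and 7.99 against 10.14, 9.98, 9.69 and 9.11, and was 3.03-fold lower (-1.60, SE 0.21, adjusted p = 0.000484). Snord58b read 6.25, 6.15, 5.75 and 5.31 against 7.67, 7.39, 7.03 and 6.74 (-1.35, SE 0.24, adjusted p = 0.00233). In neither did the groups overlap. Snord47, named after its values were seen because it lies in Gas5, read 8.48, 8.71, 8.46 and 8.47 against 9.80, 9.65, 9.82 and 9.53, with little spread in either group (-1.17, SE 0.09, adjusted p = 5.25e-05).

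A group of 3 C/D genes lay in no other gene of the reference table, and Snord89 and Snord118 among them were named after their values were seen. Snord13 encodes U13, which is transcribed from its own gene and acts on the small-subunit ribosomal RNA. It read 5.77, 6.22, 5.49 and 6.46 in Grb2 UB-cKO kidneys and 9.40, 7.19, 7.13 and 7.19 in controls. The groups did not overlap, and control replicate 1 stood more than 2 log2 units above the other controls. Its log2 fold change was -1.74 (SE 0.47, adjusted p = 0.0203), and the call was lost without Grb2 UB-cKO replicate 3 (adjusted p = 0.0575). Snord89 read 8.90, 8.95, 8.79 and 8.91 against 9.71, 9.77, 9.89 and 9.67, with little spread in either group (-0.87, SE 0.07, adjusted p = 7.18e-05). Snord118 encodes U8, which acts on the large-subunit ribosomal RNA, and read 6.96, 6.54, 7.06 and 7.07 against 6.82, 7.0, 6.93 and 6.5. Its groups overlapped fully, with a log2 fold change of 0.10 (95% interval -0.22 to 0.41, adjusted p = 0.695).

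Snord71 was the snoRNA gene that rose. It read 9.83, 9.85, 9.66 and 9.73 in Grb2 UB-cKO kidneys and 9.44, 9.41, 9.44 and 9.05 in controls, with no overlap and control replicate 4 below the other controls. The log2 fold change was 0.43 (SE 0.10, adjusted p = 0.00907), and it was 0.33 with the Y-linked covariate, where it did not pass (adjusted p = 0.294). At the threshold, Snord91a lay just inside (-0.54, adjusted p = 0.043, groups overlapping) and Snord66 just outside (-0.29, adjusted p = 0.0936). Snord91a lost its call without any 1 of control replicates 1 (adjusted p = 0.115), 2 (0.0907) and 3 (0.108) or of Grb2 UB-cKO replicates 2 (0.101), 3 (0.0817) and 4 (0.105). Snord66 passed without Grb2 UB-cKO replicate 2 (adjusted p = 0.0396). The 13 C/D genes that did not pass had log2 fold changes from -0.29 to 0.26.

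Among hosts, Rabggtb had the largest fall and was the one that fell at least 2-fold. It encodes the beta subunit of the enzyme that attaches geranylgeranyl groups to Rab proteins, and its introns carry C/D snoRNAs that were not analysed here. It read 6.66, 6.77, 6.73 and 7.07 in Grb2 UB-cKO kidneys and 8.85, 8.74, 8.14 and 8.08 in controls. All Grb2 UB-cKO values were about 1 log2 unit or more below the lowest control. It was 3.12-fold lower (log2 fold change -1.64, SE 0.18, adjusted p = 0.000235), and with the Y-linked covariate the value was -1.33 (SE 0.27, adjusted p = 0.03).

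The other 10 hosts that fell were non-coding Snhg genes, with log2 fold changes from -0.81 to -0.30. Snhg4, which carries Snora74a, read 8.09, 8.04, 7.88 and 8.09 against 8.97, 8.95, 8.83 and 8.58 (-0.81, SE 0.10, adjusted p = 0.000379). Snhg6, which carries Snord87, read 8.31, 8.49, 8.03 and 8.41 against 9.42, 9.20, 8.88 and 8.93 (-0.80, SE 0.14, adjusted p = 0.00218). In both, the groups were clearly apart. Snhg15 fell by 0.75, Snhg5 by 0.70, Snhg7 by 0.63, Snhg14 by 0.63, Snhg12 by 0.60, Snhg17 by 0.44 and Snhg3 by 0.40 on the log2 scale, with adjusted p-values from 0.000266 to 0.00874. Snhg14 is the long host of the imprinted Snord115 and Snord116 clusters. Snhg10 was just inside the threshold (-0.30, adjusted p = 0.0152).

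A further 3 hosts did not pass. Snhg1, the host of Snord22, read 9.09, 9.05, 9.05 and 8.97 in Grb2 UB-cKO kidneys and 9.91, 9.30, 9.19 and 9.24 in controls. The groups did not overlap, but control replicate 1 stood apart from the other controls, and the log2 fold change of -0.37 (SE 0.14) had an adjusted p of 0.0877. Without control replicate 1 it was -0.20 (adjusted p = 0.0644). Snhg20 lay just outside (-0.21, adjusted p = 0.0804) and passed without Grb2 UB-cKO replicate 1 (adjusted p = 0.0471). Snhg9, which spans Snora78, read 5.82, 5.78, 5.95 and 5.77 against 5.77, 5.88, 5.97 and 5.95, with full overlap (-0.06, 95% interval -0.23 to 0.10, adjusted p = 0.596). Snora78 also lies in Rps2, which was not analysed here.

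Snhg18 and Snhg11 rose. Snhg18 read 9.22, 9.04, 9.38 and 9.48 in Grb2 UB-cKO kidneys and 8.36, 8.34, 8.65 and 8.75 in controls (0.75, SE 0.12, adjusted p = 0.00162). Snhg11, a host gene known for expression in neurons, read 7.15, 7.34, 7.28 and 7.39 against 6.87, 6.69, 6.80 and 6.57 (0.55, SE 0.09, adjusted p = 0.00125). In both, every Grb2 UB-cKO embryo was above every control. With the Y-linked covariate the values were 0.62 (adjusted p = 0.111) and 0.48 (adjusted p = 0.0879). Snord123, which lies in Snhg18, read 7.42, 7.02, 7.48 and 7.77 against 7.25, 7.22, 7.14 and 7.06, and its groups overlapped (0.25, adjusted p = 0.215). It passed without Grb2 UB-cKO replicate 2 (0.39, adjusted p = 0.0204), and without Grb2 UB-cKO replicate 4 it was at 0.14 (adjusted p = 0.451).

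Host transcripts often begin with a C and a run of pyrimidines, the terminal oligopyrimidine tract that ribosomal protein transcripts share and through which translation responds to growth signals. The starts of 6 hosts are shown because they span those that fell (Snhg7, Snhg12, Snhg3), one that did not pass (Snhg1) and those that rose (Snhg18, Snhg11). Each is 60 bases of the coding strand from RefSeq on GRCm38.p6, with 30 bases before the annotated start, and capitals mark the unbroken run of C and T that begins at that start.
Snhg7 (chr2:26640215-26640274, minus strand): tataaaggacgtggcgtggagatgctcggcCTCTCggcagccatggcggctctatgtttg
Snhg12 (chr4:132308648-132308707, plus strand): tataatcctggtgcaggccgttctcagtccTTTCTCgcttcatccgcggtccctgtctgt
Snhg3 (chr4:132353657-132353716, minus strand): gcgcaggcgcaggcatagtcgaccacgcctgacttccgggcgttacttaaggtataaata
Snhg1 (chr19:8723457-8723516, plus strand): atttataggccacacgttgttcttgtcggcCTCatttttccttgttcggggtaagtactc
Snhg18 (chr15:32244633-32244692, minus strand): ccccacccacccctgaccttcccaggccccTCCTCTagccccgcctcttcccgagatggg
Snhg11 (chr2:158375683-158375742, plus strand): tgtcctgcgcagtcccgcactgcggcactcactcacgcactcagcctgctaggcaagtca
Of these, Snhg7 alone begins with C and a run of at least 5 bases of C or T. Snhg12 and Snhg18 have longer runs that begin with T, and the runs differ between hosts that moved the same way. A start with C and such a run was found at 1 of 16 annotated starts of the measured hosts (6.25%). The table held 14 of these hosts and lacked Snhg4 and Snhg6. Such a start was found at 3 of 20 starts of all host names in the table (15.0%). It was found at 4 of 47 starts of genes outside the measured members that span a snoRNA member (8.51%). Gas5 and Snhg16 belong to both the host names and this last set, and the Gas5 start with such a run counts in both. Over the whole table the share was 2.51% of 32851 starts. CACGTG, a palindrome and therefore the same on both strands, was searched after the values were seen. The search ran from 250 bases before the start to a point past it, a wider stretch than the 60 bases shown. CACGTG was found at 12.5% of the starts of measured hosts and 2 of 20 of those of all host names. It was found at 21.3% of the starts of the spanning genes outside the measured members, Gas5 and Snhg16 included, and 7.15% of all starts. These are matches of letters, and annotated starts can miss the base at which transcription begins.

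To set each snoRNA beside the gene it lies in, every gene of the reference table whose span holds the snoRNA gene was taken as its spanning gene, without regard to strand. Of the 73 snoRNA genes, 60 had a measured spanning gene, which gave 61 pairs (Snord87 lies in both Snhg6 and Mcmdc2) with 47 spanning genes, 7 of them Snhg members and 40 others. The 40 others included ribosomal protein, translation factor, chaperonin and nucleolar genes, of which 23 fell, 1 rose and 16 did not pass, with a median of -0.33. Of these, 8 of the 23 and the 1 that rose still passed with the Y-linked covariate, and the median was -0.35. Among all genes, 14.3% were called lower without the covariate and 2.76% with it. In 31 pairs both genes fell, and in 10 neither passed. In 11 pairs the snoRNA fell and the spanning gene did not pass, and in 6 the spanning gene fell and the snoRNA did not pass. In 1 pair, Snord91a in Srr, the snoRNA fell and the spanning gene rose, but Snord91a also lies in Tsr1, which was not analysed here. The log2 fold change of the snoRNA was below that of the spanning gene in 46 pairs and above it in 15, with a median difference of -0.32 (-0.45 in the 11 pairs with a Snhg member and -0.18 in the 46 pairs with a protein-coding spanning gene). Across the 61 pairs Pearson's r of the fold changes was 0.48 and Spearman's rho 0.51, a description over pairs that share embryos and in part spanning genes. Whether probe sets of snoRNA and protein-coding genes compress fold changes to a different degree was not tested.

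**Figure D3:**
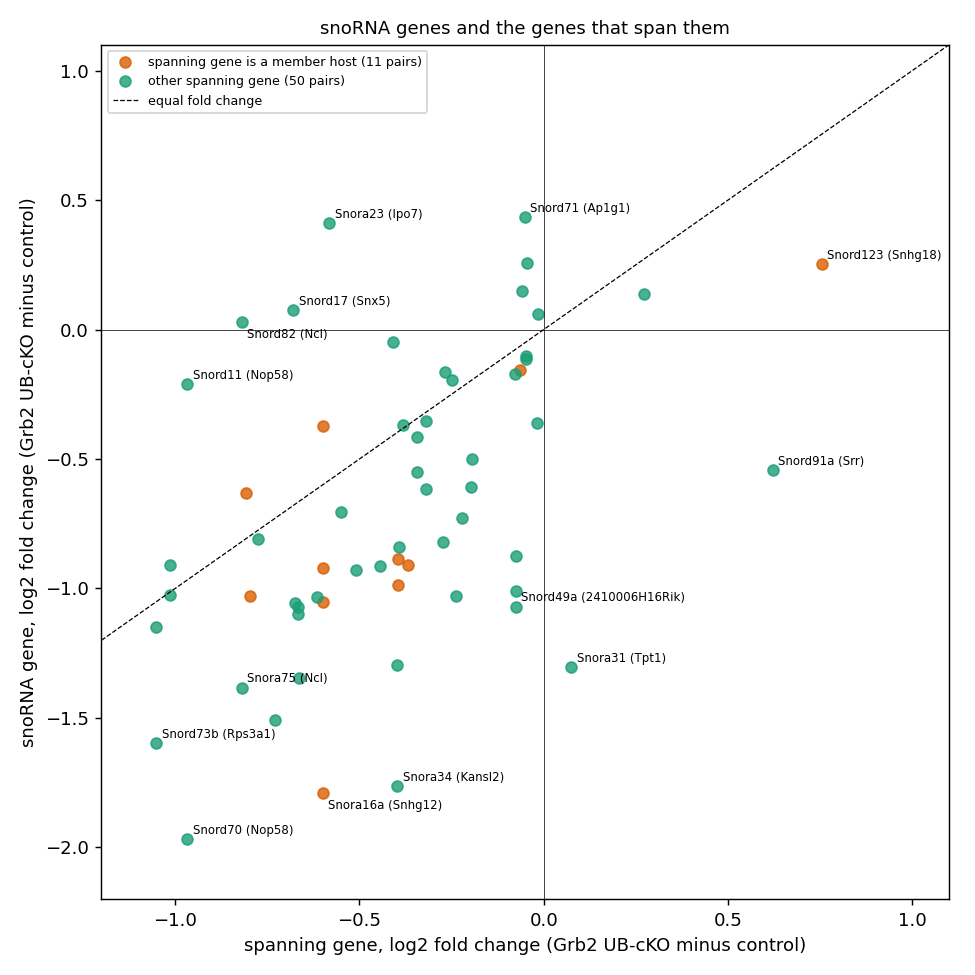
Log2 fold change of each snoRNA gene (y axis) against that of the gene that spans it (x axis), Grb2 UB-cKO minus control, for 61 pairs, with orange points for Snhg members as spanning genes, green for others and a dashed line of equal fold change. 46 points lie below the line, among them Snord70 in Nop58, and 15 above it, among them Snora23 in Ipo7.

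Within embryos, the difference between a snoRNA and its spanning gene did not overlap between groups in 22 pairs and overlapped in 39. Among all genes, 31.2% had levels that did not overlap between groups, which is not far from the share of the 61 pairs. That percentage is for levels of single genes, and none was computed for differences between genes. The count of pairs apart is therefore not read as a trait of these pairs. In 17 of the 22 pairs the log2 fold change of the snoRNA was below that of the spanning gene, and in 5 it was above. The 17 include Snord87 with Mcmdc2, while the difference of Snord87 to Snhg6, which also spans it, overlapped. They also include Snord91a with Srr, although Snord91a lies in Tsr1 as well. Snord123 is 1 of the 17, since it was at 0.25 and its host Snhg18 rose by 0.75. Among the 17, Snora31 fell by 1.30 while its spanning gene Tpt1, which encodes the translationally controlled tumor protein, was at 0.07 (adjusted p = 0.488). Snora34 and Snora2b, both in Kansl2, fell by 1.76 and 1.30, and Kansl2 fell by 0.40 (adjusted p = 0.0028). Snord49a and Snord65, both in the non-coding gene 2410006H16Rik, fell by 1.07 and 1.01, and the host was at -0.08 (adjusted p = 0.684). The 5 were Snora23 in Ipo7, Snord82 in Ncl, Snord11 in Nop58, Snord17 in Snx5 and Snord71 in Ap1g1. Ipo7, Ncl, Nop58 and Snx5 fell by 0.58, 0.82, 0.97 and 0.68, whereas Snora23, Snord82, Snord11 and Snord17 did not pass. These pairs were named after their values were seen, and the differences were not tested beyond overlap.

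The snoRNAs within a host were then set side by side. Snhg12 carries 4 members, and it read 7.04, 6.93, 6.99 and 6.71 in Grb2 UB-cKO kidneys and 7.76, 7.74, 7.39 and 7.18 in controls (-0.60, SE 0.14, adjusted p = 0.00874). Snora16a fell by 1.79, Snord99 by 1.05, Snora44 by 0.92 and Snora61 by 0.37, each without overlap of its groups. Snora61 read 6.89, 6.82, 6.83 and 6.77 against 7.39, 7.24, 7.13 and 7.03 (SE 0.08, adjusted p = 0.00833). The within-embryo difference of Snora16a to Snora61 was 0.55 to 0.84 in Grb2 UB-cKO and 1.89 to 2.73 in control kidneys, so it did not overlap. In Nop58, which encodes a core protein of C/D particles, Snord70 fell by 1.97 and Snord11 was at -0.21 (95% interval -0.45 to 0.03, adjusted p = 0.193), and their difference also did not overlap. Snord11 read 8.22, 8.0, 7.96 and 7.82 against 8.03, 8.09, 8.37 and 8.34, with groups that overlapped.

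In Ncl, the gene of nucleolin, Snora75 read 7.36, 7.97, 7.47 and 7.33 against 9.54, 9.35, 8.81 and 7.96, and Snord82 read 10.33, 10.46, 10.40 and 10.41 against 9.97, 9.99, 10.79 and 10.71. Snora75 fell by 1.38 (SE 0.31, adjusted p = 0.00746), although control replicate 4 lay within the range of the Grb2 UB-cKO embryos. Control replicates 1 and 2 were lower than control replicates 3 and 4 for Snord82, and its log2 fold change was 0.03 (95% interval -0.38 to 0.44, adjusted p = 0.931). The difference between the pair overlapped between groups. Over all hosts with several measured snoRNAs there were 18 snoRNA pairs in 11 hosts, of which 4 did not overlap in their within-embryo difference and 14 did, beside the 31.2% of all genes whose levels did not overlap. Besides Snora16a with Snora61 and Snord70 with Snord11, the 4 were Snora16a with Snora44 and Snora61 with Snord99, both in Snhg12.

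**Figure D4:**
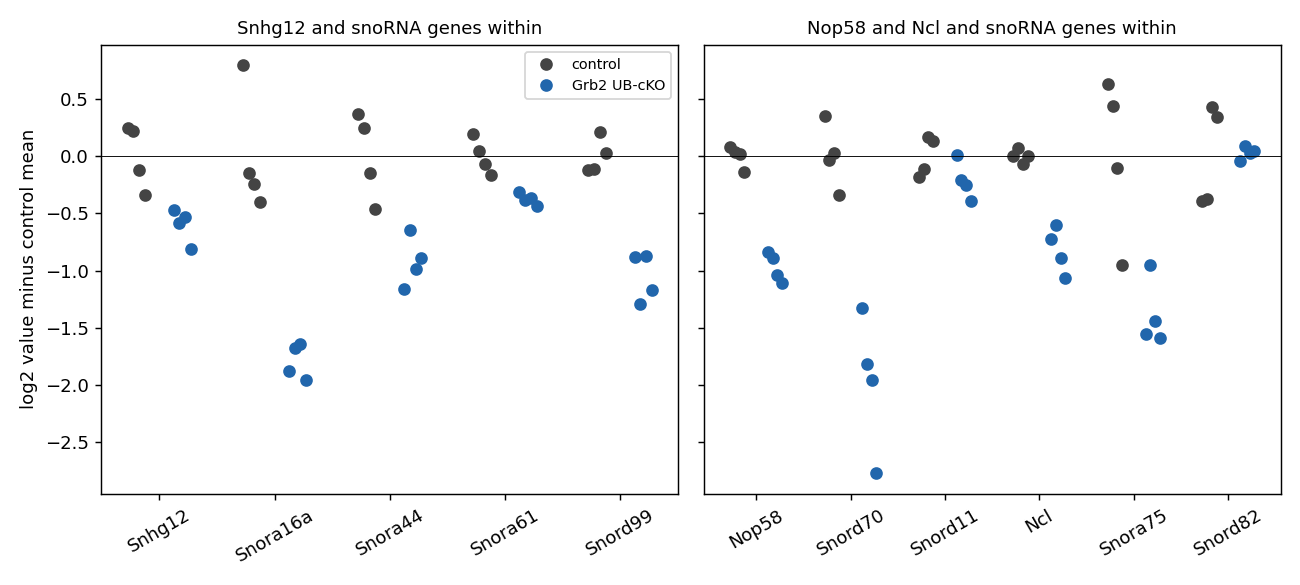
Log2 value minus the control mean (y axis) in each embryo for Snhg12 and the 4 snoRNA genes in it (left) and for Nop58 and Ncl with 2 snoRNA genes in each (right), control embryos in grey and Grb2 UB-cKO embryos in blue, each gene's 4 points ordered by replicate. Snora16a and Snord70 lie furthest below their controls, and Snord11 and Snord82 overlap with theirs.

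The kind of spanning gene was also compared. Without the Y-linked covariate, 14.3% of all genes and 71.2% of the 73 snoRNA genes were called lower. With it, 2.76% of all genes and 25 of the 73 snoRNA genes were called lower. Of the 19 snoRNA genes in a ribosomal protein gene, 17 fell, with a median of -0.62. With the Y-linked covariate 9 of them passed, with a median of -0.57. Of the 11 in a Snhg member, 9 fell, with a median of -0.91. With the covariate 3 of these passed, with a median of -0.64. Snora78, which did not pass, lies in Rps2 and in Snhg9 and is counted in both groups. Snord73b and Snord73a, both in Rps3a1, fell by 1.60 and 1.15. Rps3a1 itself fell by 1.05 (SE 0.28, adjusted p = 0.0188), with 9.14, 9.15, 8.84 and 8.93 against 10.77, 10.54, 9.42 and 9.54. Control replicates 1 and 2 were over 1 log2 unit above the Grb2 UB-cKO embryos and the other controls less so. Its call was lost without control replicate 2 (adjusted p = 0.0547) or Grb2 UB-cKO replicate 3 (0.0508). With the Y-linked covariate it was at -0.39 and did not pass (adjusted p = 0.634). Of the 3 X-linked snoRNA genes, 1 fell, and of the other 70, 51 fell. With the Y-linked covariate, 0 of the 3 and 25 of the 70 were called lower.

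RNA levels were also lower for most measured genes of the proteins that form or assemble snoRNA particles. Of 22 listed genes for core and assembly proteins, 21 were measured, of which 13 fell, none rose and 8 did not pass, with a median of -0.42. Of the 13, 6 still passed with the Y-linked covariate, and the median was -0.39. Among all genes, 14.3% were called lower without the covariate and 2.76% with it. All 4 genes of the H/ACA core fell. Gar1 read 8.47, 7.81, 7.98 and 7.96 in Grb2 UB-cKO kidneys and 9.62, 9.46, 9.51 and 9.73 in controls, without overlap (-1.53, SE 0.13, adjusted p = 8.77e-05). Nhp2 fell by 0.85, Dkc1, the gene of the pseudouridine synthase dyskerin, by 0.69 and Nop10 by 0.44. The 3 measured genes of the C/D core also fell. Nop58 read 8.96, 8.91, 8.76 and 8.69 against 9.88, 9.83, 9.82 and 9.66 (-0.97, SE 0.08, adjusted p = 8.31e-05), while Nop56 fell by 0.67 and Snu13 by 0.56. In these 7 genes no group overlapped. Gar1, Nhp2, Nop58 and Nop56 still passed with the Y-linked covariate, while Dkc1 (adjusted p = 0.0501), Snu13 (0.0541) and Nop10 (0.0766) did not.

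Among the genes for assembly factors the picture was mixed. Ruvbl1, an ATPase of the R2TP chaperone complex, fell by 0.79 (SE 0.09, adjusted p = 0.00022), and Rpap3, its scaffold, fell by 0.70 (SE 0.08, adjusted p = 0.000344). Ruvbl2, the partner ATPase, read 9.89, 9.87, 9.85 and 9.89 against 9.56, 9.69, 10.06 and 10.19, with Grb2 UB-cKO values in the middle of the control range (adjusted p = 0.993). Naf1 and Shq1, assembly factors of H/ACA particles, were at -0.08 and -0.06 and did not pass. Znhit6 and Nolc1 fell by 0.48 and 0.42. Ruvbl1 and Rpap3 still passed with the Y-linked covariate, while Znhit6 (-0.27, adjusted p = 0.31) and Nolc1 (-0.42, adjusted p = 0.147) did not.

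Other small non-coding RNA genes moved less uniformly. Of 15 measured, 7 fell, 1 rose and 7 did not pass, with a median of -0.30, where 14.3% of all genes were called lower. Rny3 alone still passed with the Y-linked covariate (-1.49, adjusted p = 0.0141), and the median was -0.43. The list is not separate from the snoRNAs. It holds Rnu3a as well as Scarna genes, whose small Cajal body RNAs are of the H/ACA or C/D kind. Scarna6, Scarna8, Scarna10 and Scarna2 fell, at -0.99, -0.67, -0.55 and -0.30, and Scarna17 did not pass (0.34, adjusted p = 0.175). The Y RNA genes Rny3 and Rny1 fell by 1.13 (SE 0.17, adjusted p = 0.000885) and 0.87 (SE 0.14, adjusted p = 0.00131). Rnu3a, a gene of the U3 C/D RNA needed for cleavage of the ribosomal RNA precursor, fell by 0.57 (SE 0.09, adjusted p = 0.00139). With the Y-linked covariate Rny1 was at -0.86 (adjusted p = 0.0651) and Rnu3a at -0.52 (adjusted p = 0.0854), and neither passed. Rpph1, the RNA of ribonuclease P, rose by 0.85 (SE 0.21, adjusted p = 0.0121), with 12.35, 12.44, 12.20 and 12.26 against 11.03, 11.03, 11.92 and 11.87. Control replicates 1 and 2 were lower than control replicates 3 and 4, and with the Y-linked covariate Rpph1 was at 0.38 and did not pass (adjusted p = 0.51). Rn7sk, the RNA that holds the elongation factor P-TEFb inactive, was at -0.06 (adjusted p = 0.634) and the telomerase RNA Terc at -0.24 (adjusted p = 0.179).

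In the fit with a term for the Y-linked mean, 25 of the 52 snoRNA genes that fell still passed, 6 H/ACA and 19 C/D, and so did 4 of the 11 hosts, Rabggtb, Snhg4, Snhg7 and Snhg17. In that fit 2.76% of all genes were called lower and 2.85% higher. All 53 snoRNA genes and all 13 hosts that had passed kept their sign, and the medians were -0.67 for H/ACA, -0.63 for C/D and -0.48 for hosts. The median SE of the snoRNA genes went from 0.126 to 0.211. Snora34 (-1.92, SE 0.22, adjusted p = 0.00649), Snora15 (-1.83, adjusted p = 0.0205), Snora16a (-1.52, adjusted p = 0.0463) and Snord70 (-1.97, adjusted p = 0.0388) were among those that passed. Snora31 (-1.24, adjusted p = 0.0586), Snord13 (-1.12, adjusted p = 0.452) and Snord22 (-0.59, adjusted p = 0.267) were among those that did not. Grb2 was at -0.40 and did not pass (adjusted p = 0.10).

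**Figure D5:**
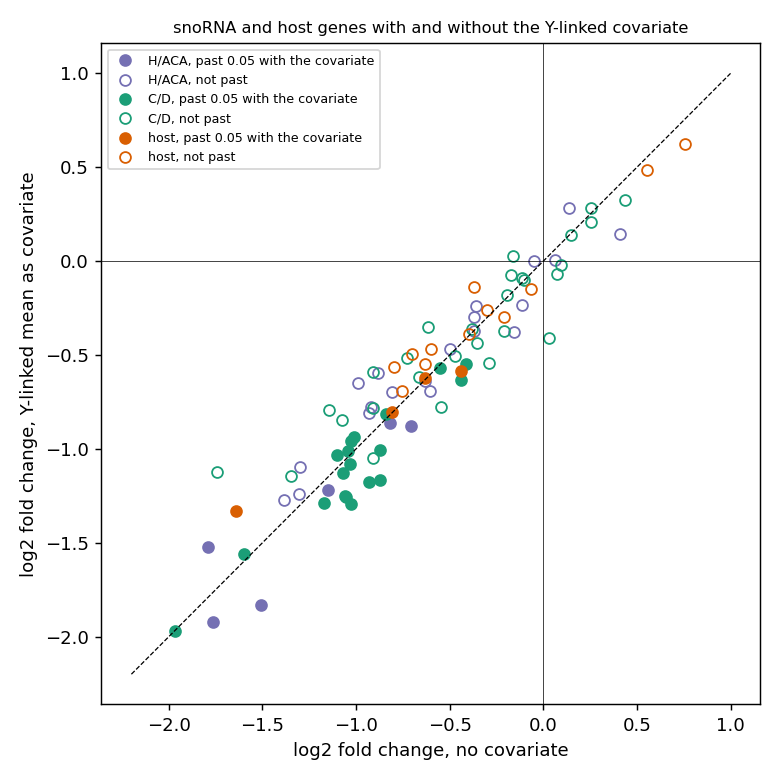
Log2 fold change from the fit with a term for the Y-linked mean (y axis) against that without it (x axis) for the 89 genes, coloured by class, with filled points for genes past an adjusted p of 0.05 in both fits and a dashed line of equal values. The filled points are 6 H/ACA genes, 19 C/D genes and 4 hosts, all of them below 0 on both axes.

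Control replicate 3, whose Y-linked level matched that of the Grb2 UB-cKO embryos, gave a direct comparison. All 4 Grb2 UB-cKO embryos were below this embryo for 51 of the 52 snoRNA genes that fell and for 11 of the 11 hosts. Against it alone the medians were -0.67 for H/ACA, -0.63 for C/D and -0.49 for host genes. This embryo was among the controls that decided the calls, and 1 control allows no test.

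With the mean of the erythroid markers as a covariate, 2 snoRNA genes, both C/D, and no host passed, where 0.419% of all genes were called lower. The medians were -0.54 for H/ACA, -0.41 for C/D and -0.40 for host genes, and 48 of the 53 snoRNA genes that had passed kept their sign. The median SE of the snoRNA genes was 0.295 in this fit. The erythroid means of the groups did not overlap, so in these 8 embryos erythroid level and genotype cannot be told apart.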

How the data were processed

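RNA from 8 embryonic kidney samples was measured on 1-colour arrays. Per the labels' protocols, 200 ng of total RNA was amplified with an Ambion WT kit. The authors deposited log2 probe-set values. They used the Transcriptome Analysis Console, per the submitters' processing notes, and the normalization was not given in the sources used here. No value was normalized again, and precision is limited by the number of arrays.

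Of 41345 probe sets, those with a single gene symbol (23521) were used, 1814 named several genes and 16010 none. Symbols were updated to RefSeq GRCm38.p6 for 23328. Spanning genes come from that table, which holds no strand. limma 3.58.1 in R 4.3.3 fitted 22180 genes with no covariate, with Benjamini-Hochberg adjustment over all of them. Fold changes are Grb2 UB-cKO minus control with the moderated SE. On simulated data for this comparison (22180 genes, 20 draws) it recovered 54.4% of log2 changes of 0.5 and 90.9% of those of 1. False calls averaged 8.05 per draw. Far fewer genes were changed in these draws than the 28.1% called in the data, so the recovery rates need not hold for it. Replicates were numbered in the order of the records and pair nothing.

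The members, lists and alternatives were chosen with earlier results of these data known. Genes named by rule were Grb2, all hosts, the 4 largest falls and up to 8 largest rises per snoRNA family without group overlap, up to 4 snoRNAs of smallest p per host, the 6 snoRNP protein genes and 8 other spanning genes of smallest p, and the genes next to the threshold. Every other gene was named after its values were seen. Alternatives were other scalings, filters, probe-set rules, spread models, array weights, thresholds, covariates and each embryo left out.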

Additional observations from a re-analysis of the deposited data

Results flagged for a closer look

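In 5 of 108 groups of 4 embryos (4.63%), from the 51 genes named by rule and the 3 class levels, 1 embryo lay further from the rest than Dixon's 95% critical value for 4 samples allows, and chance flags about 1 group in 20. Snord13 was 9.40 in control replicate 1 and 7.13 to 7.19 in the other controls. Snhg1 was 9.91 in control replicate 1 and 9.19 to 9.30 in the others. Snord71 was 9.05 in control replicate 4 and 9.41 to 9.44 in the others. Snhg14 was 6.16 in Grb2 UB-cKO replicate 2 and 6.7 to 6.81 in the others. Snhg17 was 8.82 in Grb2 UB-cKO replicate 3 and 9.03 to 9.07 in the others.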

How the results depend on the processing

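No paired analysis was possible because the replicate numbers follow the order of the records and mark no shared source. Of the values given for single named genes, 854 kept direction and side of the threshold, 78 no longer passed (40 with the erythroid and 20 with the Y-linked covariate), 10 newly passed and 4 turned sign. The 4 were Snhg1 (0.11), Snord22 (0.041), Snora73a (0.0045) and Snora23 (-0.32), all with the erythroid covariate. H/ACA genes called higher were 1 with quantile normalization, without the dimmest 25% of genes, and with a trended and robust spread. With the Y-linked covariate, H/ACA called lower were 6, C/D 19 lower and 0 higher, hosts 4 lower and 0 higher, and Grb2 was at -0.40. With the erythroid covariate, H/ACA called lower were 0, C/D 2 lower and 0 higher, hosts 0 lower and 0 higher, the medians were -0.54 for H/ACA, -0.41 for C/D and -0.40 for hosts, H/ACA minus C/D was -0.13, snoRNA minus host was -0.064, and Grb2 was at -0.55 (adjusted p = 0.18). H/ACA minus C/D turned to 0.022 without the dimmest 25%, and snoRNA minus host was -0.31 with the mean of probe sets. Snhg members alone gave -0.45 for the median pair difference. When 1 embryo was left out, H/ACA called lower were 17 to 20 and higher 0 to 1, C/D lower 30 to 33 and higher 1 to 2, hosts lower 11 to 12 and higher 2. The medians ranged from -0.81 to -0.67 for H/ACA, from -0.83 to -0.63 for C/D and from -0.55 to -0.47 for hosts, H/ACA minus C/D from -0.085 to 0.053 and snoRNA minus host from -0.30 to -0.13. C/D genes called higher were 2 without Grb2 UB-cKO replicate 1 or 2, and H/ACA genes called higher were 1 without control replicate 3 or 4. The cause of these shifts was not tested. The planned search for TGATGA at snoRNA starts was not run, since the sequence table used here holds no snoRNA gene.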
